A study of Mus musculus with 30 samples.

Results

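The 8 genes described here encode the core of MHC class II antigen presentation: the peptide-binding chains H2-Aa, H2-Ab1 and H2-Eb1, the invariant chain Cd74, the peptide-loading chains H2-DMa, H2-DMb1 and H2-DMb2, and the transcriptional coactivator Ciita. They were taken by symbol from a table of 31023 genes, all 8 were found, and all 8 were among the 19558 genes that passed the filter on low counts. RNA came from the colon of male C57BL/6 mice aged 8 to 12 weeks, wild-type (WT) or Smox–/– (written Smox), collected on day 56, in 10 groups of 3 libraries. Smox encodes spermine oxidase, an enzyme that turns spermine into spermidine. The untreated groups of both genotypes received neither agent, and the spermidine groups of both genotypes drank 14 mM spermidine for 56 days. The AOM-DSS groups received 12.5 mg/kg azoxymethane (AOM), a carcinogen, by injection into the abdomen and then 4% dextran sulfate sodium (DSS), which injures the colon lining, in 3 cycles of 5 days from days 5, 26 and 47. Non-tumor colon of both genotypes was sampled after AOM-DSS alone, called AOM-DSS colon here, and after AOM-DSS together with spermidine in the drinking water, called AOM-DSS-Spd colon. Tumors came from WT mice given AOM-DSS and spermidine and from Smox mice given AOM-DSS alone, so in tumors genotype and spermidine cannot be told apart. The opposite pair of tumor groups was not analysed here.

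The design text gives 3 mice per group. The labels do not give which mouse a tumor came from or which part of Smox was removed, and replicate numbers follow the order of the samples and pair nothing. In untreated colon Smox RNA was not lower in Smox than in WT. It was at 26.7, 25.1 and 27.6 CPM (a gene's count scaled to library size) in WT and at 28.7, 36.2 and 27.4 CPM in Smox. It was lower in Smox without overlap among mice given spermidine (18.6 to 26.6 against 43.7 to 49.4 CPM), in AOM-DSS colon (26.1 to 35.8 against 41.8 to 50.7) and in tumors (44.0 to 68.7 against 123 to 169). In AOM-DSS-Spd colon replicate 1 of Smox held 63.1 CPM, above all 12 WT non-tumor libraries (at most 54.1 CPM), and the other two Smox libraries lay below the WT libraries of that treatment. What these RNA levels say of the genotype was not tested, and WT and Smox name libraries by their labels throughout. Library totals ran from 33060607 to 81011304 counts. A list of 12 colon epithelium markers summed to at least 12390 CPM in every library, so markers of the labelled tissue were present throughout. In replicate 3 of untreated WT a list of 7 skeletal muscle genes summed to 7805 CPM, the highest of the 30 libraries. That library, for its muscle genes, and replicate 1 of Smox AOM-DSS-Spd colon, for its Smox RNA, were treated as atypical, and the comparisons that use them were also run without them. All levels are CPM scaled by TMM unless said otherwise, and n is 3 in every group.

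MHC class II molecules are pairs of an alpha and a beta chain that present peptides from endosomes to CD4 T cells. The invariant chain fills the groove of the new molecule, and the DM heterodimer then exchanges its remnant for peptide. Dendritic cells, B cells and macrophages carry these genes throughout, whereas intestinal epithelium gains them under interferon gamma through Ciita, which is recruited by factors sitting on the X and Y boxes of class II promoters.

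The promoter sequences are shown because Ciita acts through the X and Y boxes, and because H2-DMb1 and H2-DMb2 are neighbouring copies whose levels followed different libraries. In GENCODE vM21 on GRCm38, H2-DMa (17:34119541-34139101), H2-DMb2 (17:34143307-34151555), H2-DMb1 (17:34153072-34160230), H2-Ab1 (17:34257689-34269419), H2-Aa (17:34282744-34287823) and H2-Eb1 (17:34305867-34316674) lie in one stretch of chromosome 17, H2-Aa on the minus strand and the others on the plus strand. Ciita lies on chromosome 16 (10480059-10528418, plus strand). RefSeq promoter windows on GRCm38.p6, 250 bases before to 50 after a start, were matched for 5 of the 8 members, namely H2-Aa, H2-Eb1, H2-DMa, H2-DMb1 and H2-DMb2, in 6 windows. H2-Ab1, Cd74 and Ciita are named only. The stretches below run 5′ to 3′ on the gene strand from base -140 to base -21 before the RefSeq start, and capitals mark the letters searched, AACNGATGATG (X), TGATTGG (Y) and TGACGTCA. 
H2-Eb1 at chr17:34305727-34305846: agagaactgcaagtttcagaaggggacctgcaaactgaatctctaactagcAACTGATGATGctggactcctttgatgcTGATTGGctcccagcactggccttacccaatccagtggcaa
H2-DMb2 at chr17:34145109-34145228: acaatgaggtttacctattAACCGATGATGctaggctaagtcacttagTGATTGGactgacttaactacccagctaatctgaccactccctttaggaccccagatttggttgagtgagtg
H2-Aa at chr17:34287844-34287963: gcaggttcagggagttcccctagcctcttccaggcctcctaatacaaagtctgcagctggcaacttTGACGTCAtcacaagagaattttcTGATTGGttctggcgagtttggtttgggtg
The H2-Eb1 stretch lies in an intron of the antisense gene Gm20513, and the H2-DMb2 stretch in an intron of a longer H2-DMb2 transcript. The X letters are those shared by the windows of H2-Eb1, H2-DMb1 and H2-DMb2, with N where these differ, so their match there is not a finding. All letters were chosen after these windows were read, and both strands were searched. The X letters occurred in 20 of 32851 windows of this length (0.0609%), the Y letters in 2568 (7.82%) and TGACGTCA, which reads alike on both strands, in 588 (1.79%). X followed by Y with 25 to 35 bases between their first letters occurred in 3 windows (0.00913%), those of H2-Eb1, H2-DMb1 and H2-DMb2, at spacings of 28, 29 and 29 bases. As the X letters came from these 3 windows and the range holds their own spacings, this match is not a finding either. Of the 6 member windows, 3 held the X letters, 4 the Y letters and 1 TGACGTCA. H2-DMa had no match to any of these letters, and H2-Aa none to X. A match is a description of letters and not of binding.

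The X and Y letters of the DMb pair were compared over 25 bases around each, printed here because the neighbours carry nearly the same letters there.
H2-DMb1 X at chr17:34153092-34153116: acctagtAACTGATGATGctaggct
H2-DMb2 X at chr17:34145121-34145145: acctattAACCGATGATGctaggct
H2-DMb1 Y at chr17:34153119-34153143: ttcactcagTGATTGGtctgacctg
H2-DMb2 Y at chr17:34145148-34145172: gtcacttagTGATTGGactgactta
Counting from 1 at the 5′ end of each 25-base stretch, with the H2-DMb1 base first, the X stretches differed by G6T and T11C. The Y stretches differed by T1G, C7T, T17A, C23T and G25A, none of them inside the searched letters. Over the aligned parts of their windows the pair was 84.2% identical.

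The level of Cd74, the invariant chain, split the libraries into a high and a low set. Untreated WT colon held 27.5, 62.2 and 55.7 CPM and untreated Smox colon 740, 1082 and 536 CPM. With spermidine alone WT colon held 143, 1631 and 39.7 CPM and Smox colon 868, 901 and 75.7 CPM. The untreated genotypes did not overlap, whereas each spermidine group held both high and low libraries. In AOM-DSS colon, Cd74 stood at 77.8, 135 and 194 CPM in WT and at 105, 157 and 2071 CPM in Smox. In AOM-DSS-Spd colon it stood at 132, 188 and 123 CPM in WT and at 94.1, 125 and 64.4 CPM in Smox. Here only replicate 3 of the Smox mice without spermidine stood high, and its level was the highest of the 30 libraries. In tumors Cd74 was at 98.4, 47.5 and 88.1 CPM in WT and at 77.8, 109 and 1604 CPM in Smox, where again only replicate 3 stood high.

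No library lay between 194 and 536 CPM of Cd74, a gap of 2.76-fold with 8 libraries above it and 22 below. The 8 were the 3 untreated Smox libraries, replicate 2 of WT given spermidine, replicates 1 and 2 of Smox given spermidine, and replicate 3 of Smox AOM-DSS colon and of Smox tumors. They comprised 1 of 15 WT libraries and 7 of 15 Smox libraries and came from 5 of the 10 groups. The same 8 libraries were the 8 highest for H2-Aa, H2-Ab1, H2-Eb1, H2-DMa and H2-DMb1. By group mean, Cd74 ran from 786 ± 276 CPM (SD, n = 3) in untreated Smox, 778 ± 1120 in Smox AOM-DSS colon, 615 ± 467 in Smox with spermidine, 604 ± 890 in WT with spermidine and 597 ± 872 in Smox tumors. The lower 5 groups were WT AOM-DSS-Spd colon (148 ± 35.5), WT AOM-DSS colon (136 ± 58.2), Smox AOM-DSS-Spd colon (94.4 ± 30.2), WT tumors (78.0 ± 26.9) and untreated WT (48.5 ± 18.5). All 9 pairs of neighbours in this order overlapped. As these are bulk samples, more cells carrying class II genes and more RNA per cell cannot be told apart.

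**Figure D1:**
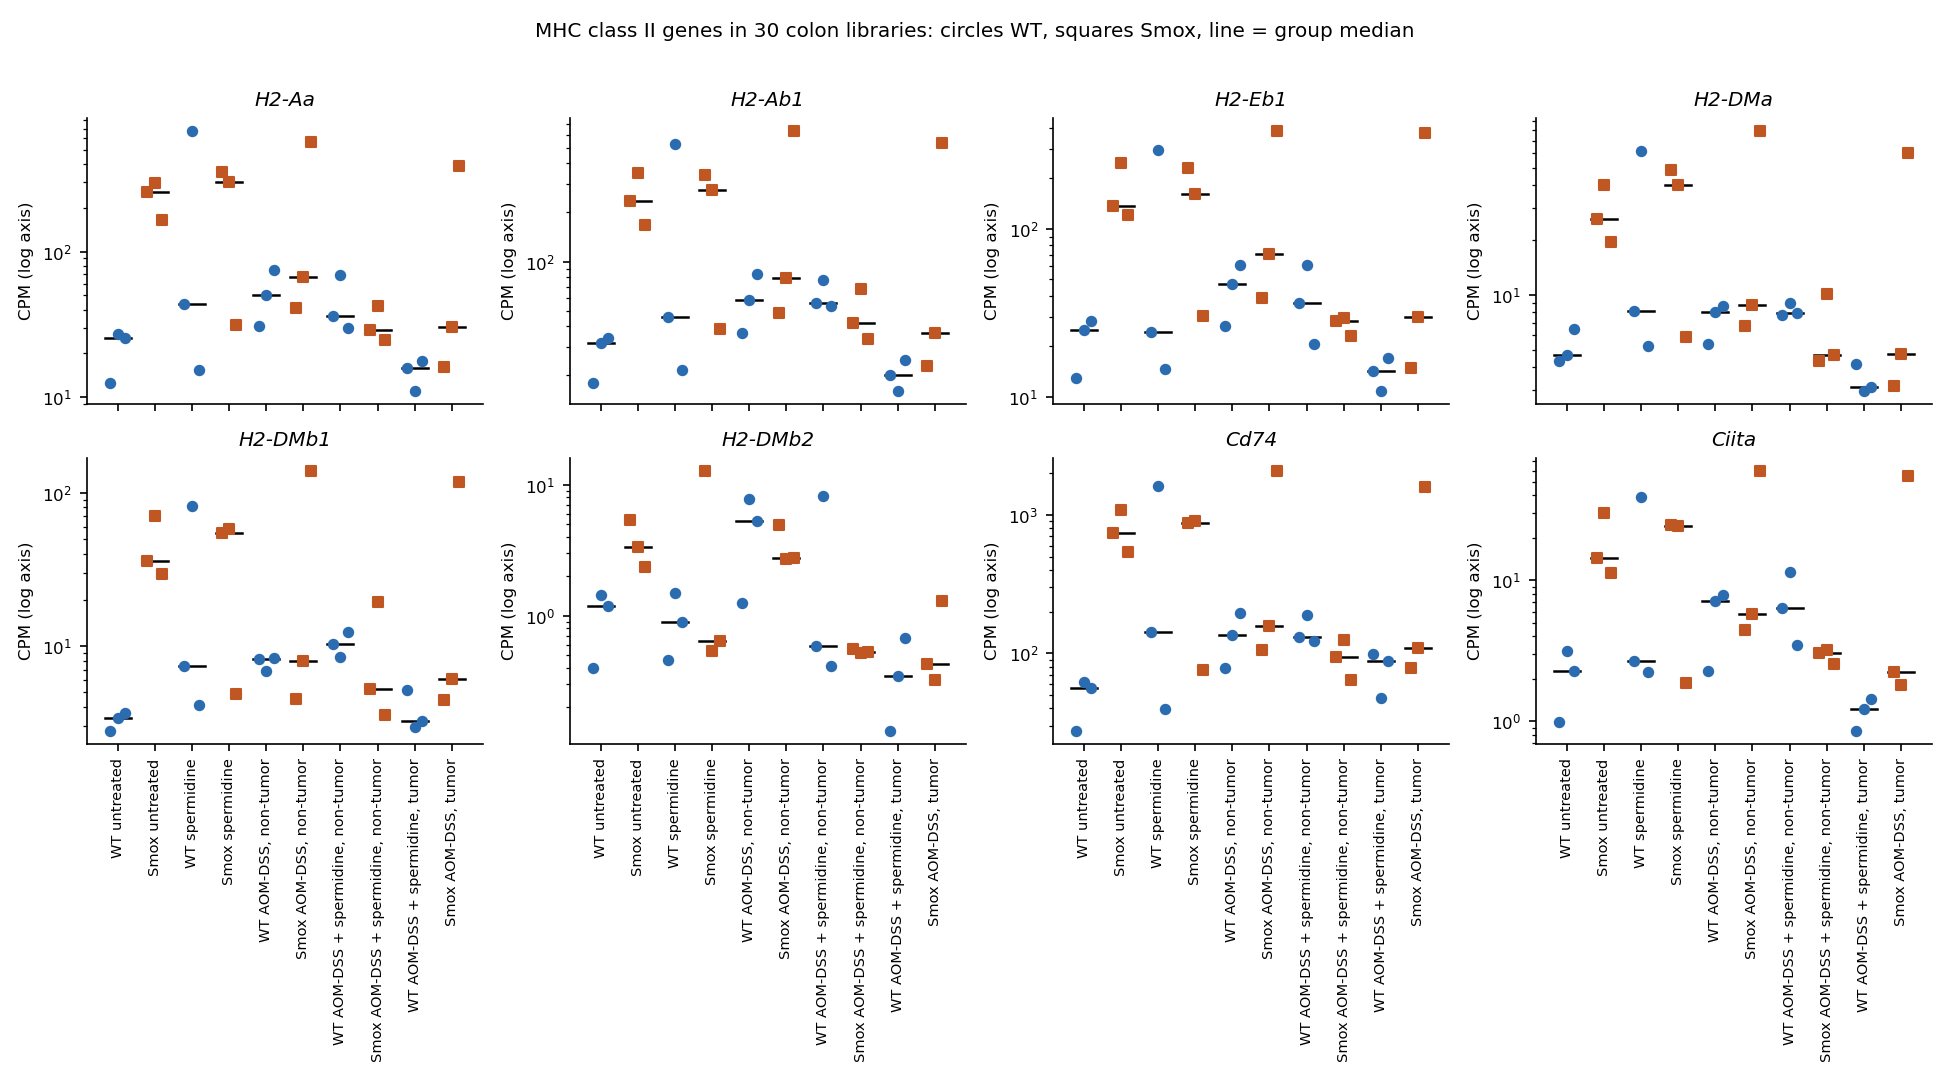
Level of each of the 8 genes in CPM on a log axis, 1 point per library in the 10 groups, circles for WT and squares for Smox, with a line at the group median. The 3 untreated Smox libraries lie above the 3 untreated WT libraries in every panel, and single high libraries stand apart in WT with spermidine, Smox AOM-DSS colon and Smox tumors for every gene except H2-DMb2.

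Cd74 lies on chromosome 18 (60803848-60812652, plus strand), apart from the peptide-binding chains, which were high and low in the same libraries. H2-Aa, the alpha chain of I-A, ran from 11.0 to 671 CPM over the 30 libraries, a 60.9-fold range. H2-Ab1, its beta chain, ran from 16.1 to 628 CPM (39.1-fold), and H2-Eb1, the beta chain of I-E, from 10.8 to 380 CPM (35.1-fold). In untreated colon H2-Ab1 was at 18.0, 31.4 and 33.8 CPM in WT and at 236, 350 and 168 CPM in Smox. H2-Aa in the same mice was at 12.6, 27.0 and 25.5 CPM in WT and at 258, 298 and 166 CPM in Smox, and neither gene overlapped between the genotypes. Their ratio within a library moved far less than their levels: H2-Aa over H2-Ab1 lay between 0.559 and 1.27 with a median of 0.841. H2-Eb1 over H2-Ab1 lay between 0.386 and 0.891 (median 0.693), and Cd74 over H2-Ab1 between 1.52 and 4.91 (median 2.42). The lowest values of both ratios of chains came from the same library, replicate 3 of WT AOM-DSS-Spd colon.

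H2-DMa and H2-DMb1, the alpha chain and a beta chain of the DM peptide exchanger, kept to the same libraries. H2-DMb1 was at 2.78, 3.37 and 3.62 CPM in untreated WT and at 35.9, 70.2 and 29.5 CPM in untreated Smox, with no overlap. WT given spermidine held 7.33, 82.4 and 4.12 CPM, and Smox given spermidine 54.7, 58.2 and 4.84 CPM. Smox AOM-DSS colon held 4.52, 7.95 and 138 CPM and Smox tumors 4.40, 6.11 and 117 CPM. The high library of each of these groups was the one that was high in Cd74. H2-DMa ran from 2.96 to 79.1 CPM over all libraries, and its ratio to H2-DMb1 lay between 0.513 and 1.79 with a median of 0.858.

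H2-DMb2, the other DM beta chain gene, did not keep to those libraries. Untreated WT held 0.395, 1.43 and 1.17 CPM and untreated Smox 5.33, 3.34 and 2.37 CPM, without overlap. With spermidine alone WT held 0.456, 1.49 and 0.885 CPM and Smox 12.6, 0.539 and 0.634 CPM. Smox replicates 1 and 2 of that group, alike in Cd74 (868 and 901 CPM), differed from 12.6 to 0.539 CPM in H2-DMb2. AOM-DSS colon held 1.24, 7.74 and 5.26 CPM in WT and, in Smox, 4.93, 2.70 and 2.76 CPM. AOM-DSS-Spd colon held 0.588, 8.23 and 0.413 CPM in WT, and the Smox libraries 0.553, 0.517 and 0.523 CPM. Tumors were low, at 0.132, 0.344 and 0.675 CPM in WT and at 0.425, 0.323 and 1.29 CPM in Smox. The ratio of H2-DMb1 to H2-DMb2 ran from 0.885 in replicate 2 of WT AOM-DSS colon to 108 in replicate 2 of Smox given spermidine, with a median of 8.13. Of the 31-base words of H2-DMb1 transcripts, 31.4% also occur in H2-DMb2. Of those of H2-DMb2, 36.4% occur in another gene and 29.7% in H2-DMb1. Reads can therefore be split between the pair by the counting, and these shares set no bound on the error of the ratio. For the other 6 members at most 1.41% of such words occur in another gene.

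H2-DMb2 went with the B cell genes of a library, and less closely with markers of several other immune cells. Spearman's rho over 30 libraries, given as a description of values that share depth and tissue, was 0.958 with H2-Ob, the beta chain of the DO inhibitor of DM, 0.861 with its partner H2-Oa, 0.934 with the class II beta chain gene H2-Eb2 and 0.939 with both Ms4a1 and Cd79a, B cell surface genes. With the mean log2 level of 10 B cell markers rho was 0.938, and with that of 7 genes of lymphoid follicles 0.904. It was 0.774 for dendritic cell, 0.757 for group 3 innate lymphoid, 0.721 for T cell and 0.241 for macrophage markers. The summed level of the B cell markers was highest, at 123 CPM, in replicate 1 of Smox given spermidine, where H2-Ob was at 16.8 CPM. The T cell (131 CPM), dendritic cell (41.0 CPM) and follicle (133 CPM) sums were also highest in that library. The B cell sum was at 1.96 CPM in replicate 2 of the same group, where H2-Ob was at 0.216 CPM although Cd74 was at 901 CPM. The next highest B cell sums were 92.2 CPM in replicate 2 of WT AOM-DSS-Spd colon and 69.0 and 64.0 CPM in replicates 2 and 3 of WT AOM-DSS colon, whose Cd74 (188, 135 and 194 CPM) was below the gap. The part of B cells in the level of H2-DMb2 was not tested.

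**Figure D2:**
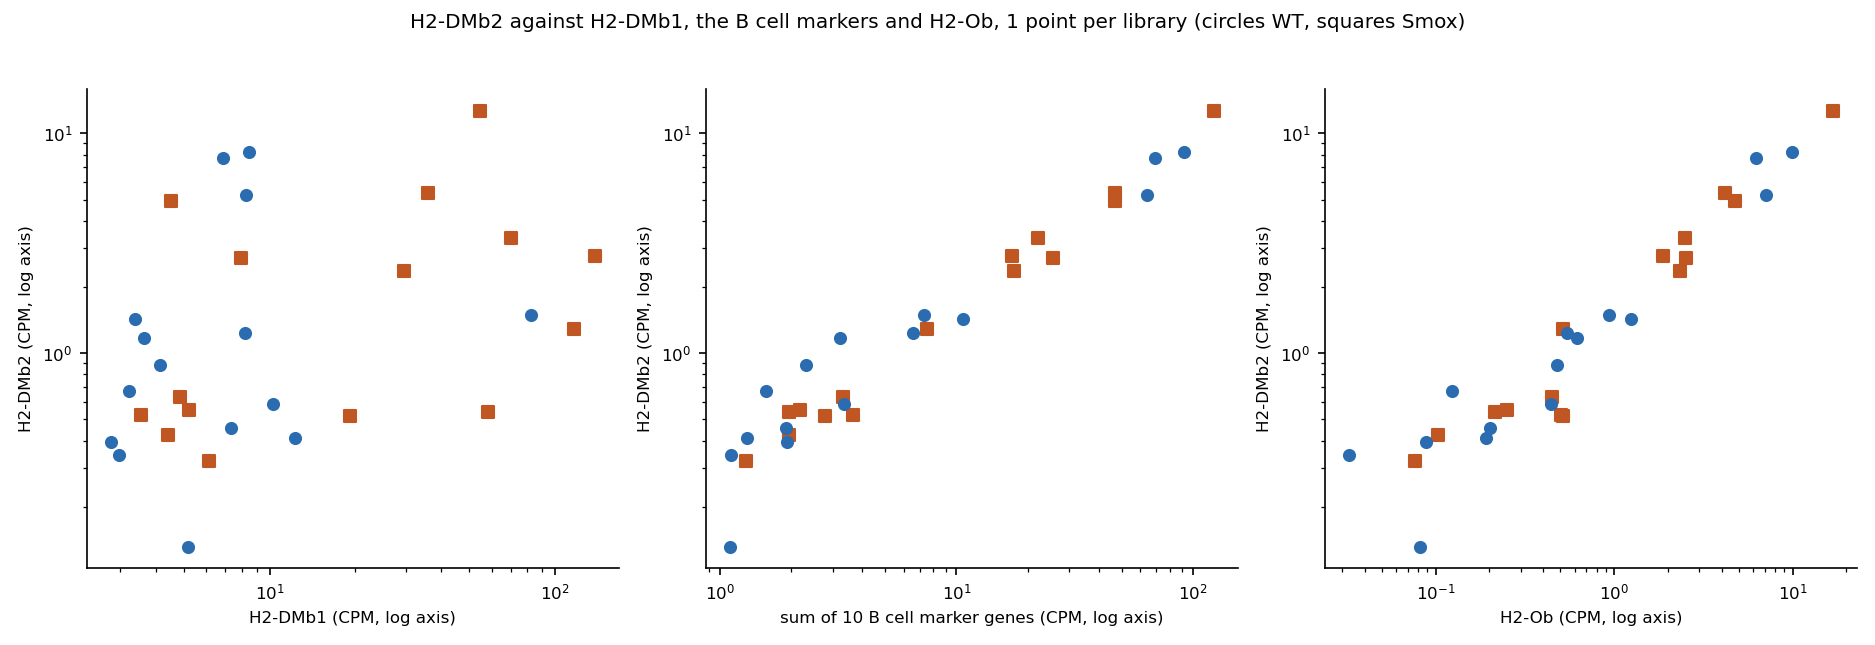
H2-DMb2 level of the 30 libraries in CPM against H2-DMb1, against the summed level of 10 B cell markers and against H2-Ob, 1 point per library on log axes. The points scatter widely against H2-DMb1, where the ratio runs from 0.885 to 108, and lie along a line against H2-Ob, with rho at 0.958.

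Ciita, the coactivator that turns on class II promoters, had 7 of the 8 libraries above the Cd74 gap at its own top. Untreated WT held 0.996, 3.13 and 2.29 CPM and untreated Smox 14.4, 29.8 and 11.3 CPM, without overlap. With spermidine alone WT held 2.70, 39.2 and 2.23 CPM and Smox 24.8, 24.3 and 1.87 CPM, so both groups again held high and low libraries. WT AOM-DSS colon held 2.27, 7.13 and 7.90 CPM and Smox AOM-DSS colon 4.42, 5.79 and 59.4 CPM, with overlap. WT AOM-DSS-Spd colon held 6.37, 11.4 and 3.49 CPM and Smox AOM-DSS-Spd colon 3.07, 3.22 and 2.56 CPM, where the lowest WT value was above the highest Smox value. WT tumors held 0.855, 1.23 and 1.43 CPM and Smox tumors 2.24, 1.80 and 54.6 CPM, also without overlap. Those 7 lay above all 22 lower libraries, and the exception was replicate 3 of untreated Smox at 11.3 CPM, next to 11.4 CPM in replicate 2 of WT AOM-DSS-Spd colon. Cd74 over Ciita ran from 16.5 to 115 within a library, with a median of 34.8.

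Compared per kilobase of the longest coding transcript, mean levels in untreated WT were 34.4 CPM per kb for Cd74, 22.9 for H2-Ab1, 19.3 for H2-Aa and 13.2 for H2-Eb1. They were 2.58 CPM per kb for H2-DMa, 2.32 for H2-DMb1, 0.67 for H2-DMb2 and 0.36 for Ciita. Together the 8 genes made up from 0.00768% of the counts in replicate 1 of untreated WT to 0.359% in replicate 3 of Smox AOM-DSS colon. Because the libraries fall into separate sets, rank correlations between members were taken within each set. Among the 21 pairs without H2-DMb2, rho lay between 0.595 and 0.954 in the 22 lower libraries (median 0.808) and between 0.833 and 1 in the 8 higher ones (median 0.952). The 7 pairs with H2-DMb2 lay between 0.197 and 0.700 in the 22 and between -0.333 and -0.0952 in the 8.

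Untreated colon labelled Smox against WT was the comparison in which every library of one group exceeded every library of the other for all 8 genes, although Smox RNA itself was not lower in these Smox libraries. A gap of that kind in the same direction was seen for 14.0% of the genes tested. Cd74 was 16.2-fold higher in Smox (786 against 48.5 CPM; log2 change 4.02, SE 1.30) with an adjusted p of 0.0638 in edgeR's quasi-likelihood test, and it did not pass the threshold of 0.05. H2-DMb1 was 13.9-fold higher (adjusted p = 0.0831, edgeR), H2-Aa 11.1-fold (0.0871), H2-Ab1 9.07-fold (0.0916) and H2-Eb1 7.59-fold (0.102). Ciita was 8.65-fold higher (adjusted p = 0.131, edgeR), H2-DMa 5.52-fold (0.141) and H2-DMb2 3.67-fold (0.290). None of the 8 was called, against 5.95% of genes tested (1164 genes, and 6 to 1351 with 1 library left out). An unadjusted p under 0.05 (edgeR) was held by 7 of the 8 and by 4737 of the 19558 genes tested. The median log2 change of the 8 was 3.15, against -0.01 over all genes. DESeq2 called 6 of the 8, Cd74 at an adjusted p of 0.00437, H2-DMb1 at 0.00968, H2-Aa at 0.0135, H2-Ab1 at 0.0186, H2-Eb1 at 0.0271 and Ciita at 0.0378. The share of all genes that DESeq2 called is not given here. Without the pair of atypical libraries Cd74 was 17.9-fold higher (adjusted p = 0.164, edgeR) and no member was called.

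In mice given spermidine the genotypes did not separate. EdgeR called 0 members (0.0818% of genes), and 1 of 8 had an unadjusted p under 0.05 (1882 genes did). DESeq2 called 0, and all 8 overlapped (20.6% of genes did not). Cd74 stood at 615 CPM in Smox and 604 CPM in WT, and the median change of the members was 0.27 on the log2 scale against 0.07 over all genes. Its direction was not stable. Leaving out replicate 1 or 3 of WT given spermidine turned the median to -0.27 in both cases, and leaving out replicate 1 or 2 of Smox turned it to -0.31 and -0.12. It was 0.72 without replicate 3 of Smox and 2.73 without replicate 2 of WT. H2-DMb2 differed most, at 4.86-fold higher in Smox (4.61 against 0.945 CPM, adjusted p = 0.514, edgeR), and it turned to -0.73 on the log2 scale without replicate 1 of Smox.

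After AOM-DSS alone, 7 of 8 genes had a higher mean in Smox than in WT non-tumor colon, with a median log2 change of 2.09 against 0.03 over all genes. Cd74 was 5.74-fold higher (778 against 136 CPM, adjusted p = 0.593, edgeR) and H2-DMb1 6.44-fold (50.1 against 7.78 CPM, adjusted p = 0.585). All 8 genes overlapped between the genotypes (12.0% of genes did not), and 0 were called by edgeR or DESeq2 (0.0665% of genes by edgeR). Of the 8, 2 had an unadjusted p under 0.05 (1640 genes did). Without replicate 3 of the Smox group the median was -0.05. H2-DMb2 was the member with a lower mean in Smox, 3.46 against 4.75 CPM.

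With spermidine during AOM-DSS all 8 genes had a lower mean in Smox non-tumor colon, with a median log2 change of -0.52 against 0.05 over all genes. Neither tool called any (0.251% of genes by edgeR), and 1 had an unadjusted p under 0.05 (2773 genes did). Ciita alone did not overlap (8.15% of genes did not in that direction), at 2.95 ± 0.344 CPM in Smox against 7.10 ± 4.02 CPM in WT, and its adjusted p was 0.675 in edgeR. H2-DMb2 was 5.80-fold lower (0.531 against 3.08 CPM, adjusted p = 0.295, edgeR), a difference set by replicate 2 of WT: without it the log2 change was 0.09. Without the atypical libraries H2-DMb1 turned from -0.15 to 0.17.

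In tumors all 8 genes had a higher mean in Smox after AOM-DSS alone than in WT after AOM-DSS with spermidine, with a median log2 change of 3.28 against 0.01. Ciita was 16.7-fold higher, at 19.6 against 1.17 CPM, and was the member without overlap (4.70% of genes in that direction). Its adjusted p was 0.562 in edgeR and 0.0340 in DESeq2. Cd74 was 7.65-fold higher (597 against 78.0 CPM, adjusted p = 0.770, edgeR). Of the 8, 0 were called by edgeR, against 0.0614% of genes, and 7 had an unadjusted p under 0.05 (1098 genes did). Without replicate 3 of the Smox tumors the median was 0.50.

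**Figure D3:**
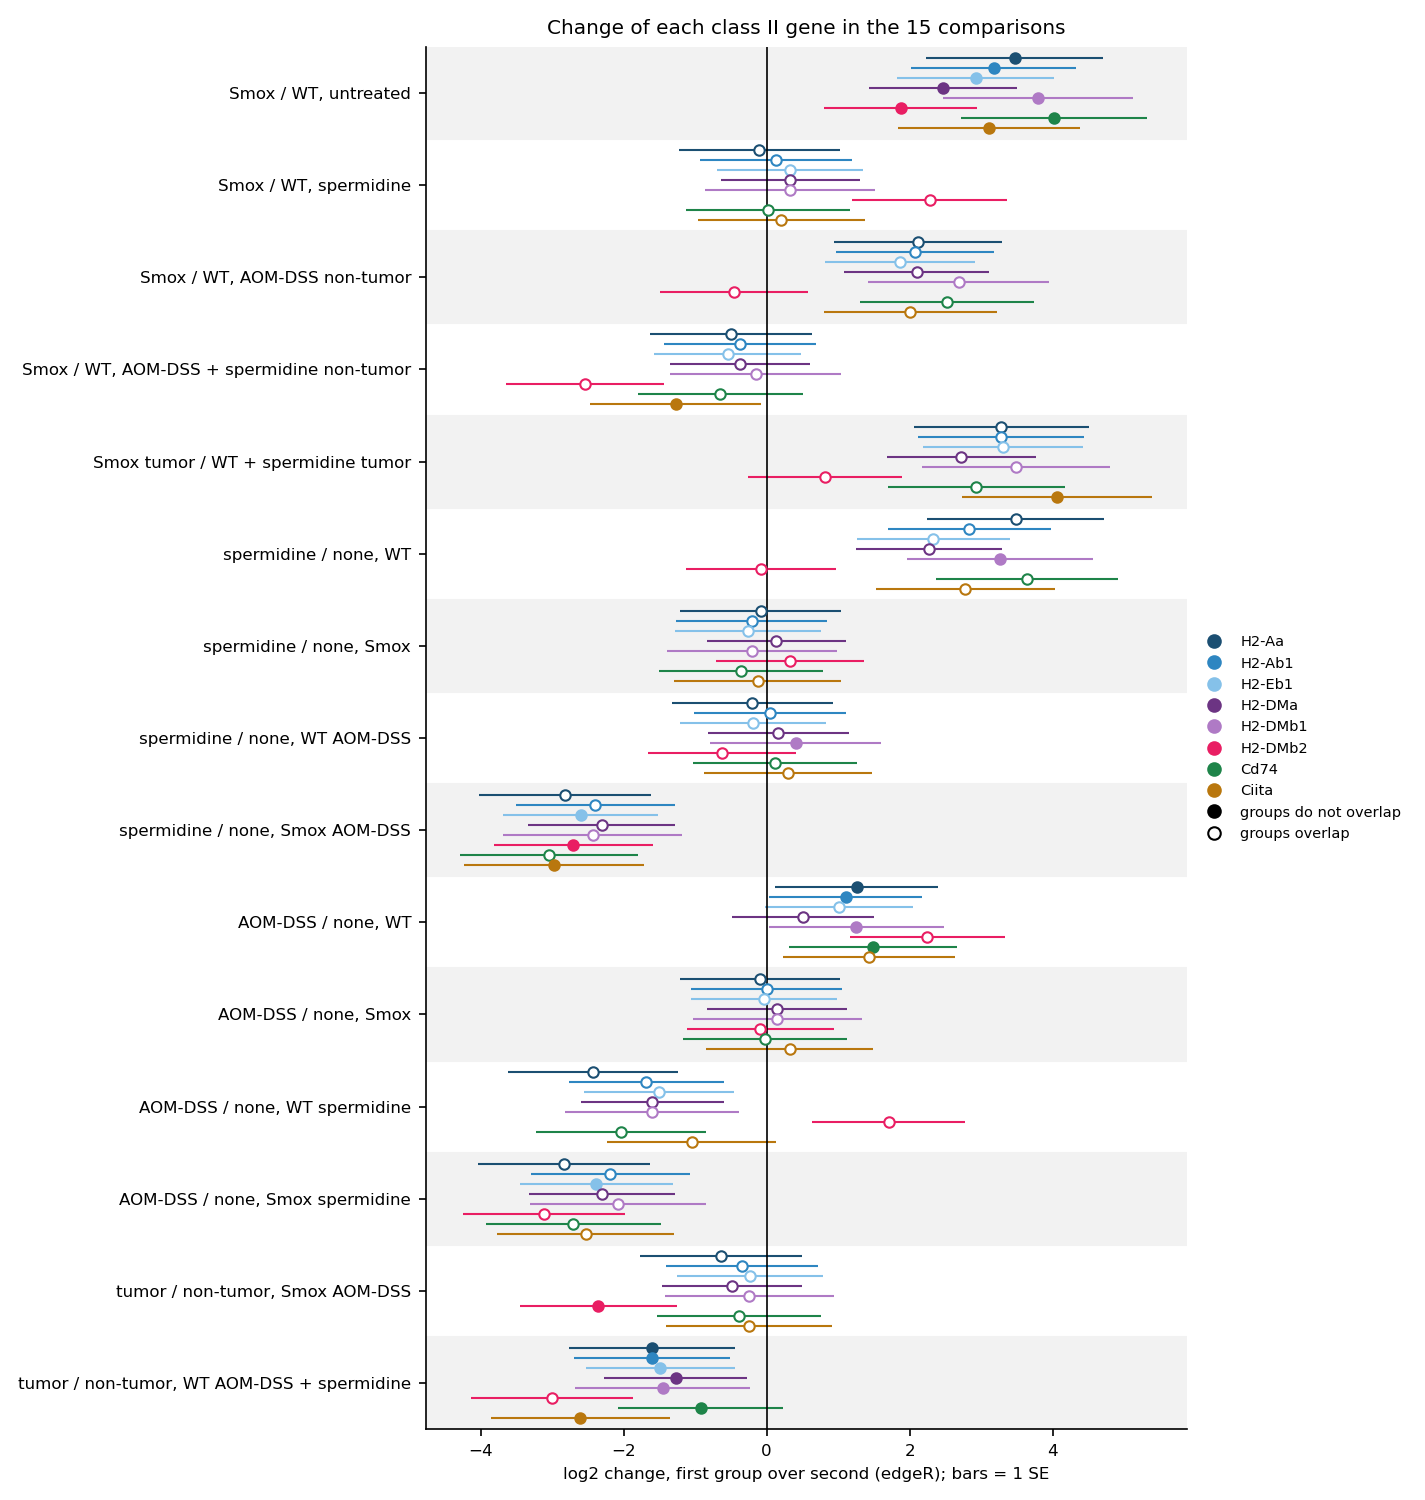
Log2 change of each gene with 1 SE in the 15 comparisons of groups, filled where the groups do not overlap. The comparison of untreated genotypes is filled for all 8 genes, and the comparison of WT tumor with non-tumor colon for 7 of them.

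Spermidine alone in WT went with a higher mean of 7 of the 8 genes, with a median log2 change of 2.81 against -0.04 over all genes. Cd74 was 12.5-fold higher (604 against 48.5 CPM, adjusted p = 0.172, edgeR) and H2-Aa 11.2-fold (243 against 21.7 CPM, adjusted p = 0.177). H2-DMb1 alone did not overlap (7.56% of genes in that direction). Although 7 had an unadjusted p under 0.05 (3152 genes did), edgeR called 0 members (0.00511% of genes). DESeq2 called Cd74 (adjusted p = 0.0238) and H2-Aa (0.0280). Without replicate 2 of WT given spermidine the median was 0.33. Without the atypical libraries Cd74 was 14.0-fold higher (adjusted p = 0.252, edgeR), and H2-DMb2 turned from -0.08 to 0.11. The comparisons of spermidine and of AOM-DSS in WT share the untreated WT libraries with that of the untreated genotypes.

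Spermidine alone in Smox left the members overlapping, with a median log2 change of -0.16 against 0.01. With a library left out it ran from -0.61 (without replicate 1 of Smox given spermidine) to 0.37 (without replicate 3), and it was also positive, at 0.18, without replicate 2 of untreated Smox. All 8 overlapped (21.1% of genes did not), and 0 were called by edgeR (0% of genes) and by DESeq2. An unadjusted p under 0.05 was held by 0 of them (1825 genes did). Cd74 was at 615 against 786 CPM. Whether spermidine changed the members differently in the genotypes was tested by the interaction, in which Cd74 had a log2 difference of -3.99 (SE 1.68, adjusted p = 0.177, edgeR). That test called 0 members (2.91% of genes), with 2 at an unadjusted p of less than 0.05 (3977 genes were). By DESeq2 0 were called. The median of the members was -2.97 with all libraries and -0.41 without replicate 2 of WT given spermidine.

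During AOM-DSS, spermidine in WT left a median log2 change of 0.09 in non-tumor colon against -0.03 over all genes. It turned to -0.22 without replicate 1 of the group without spermidine and to -0.21 without replicate 2 of the group with it, and reached 0.34 without replicate 3 of the former. H2-DMb1 did not overlap (5.84% of genes in that direction), at 10.3, 8.46 and 12.3 CPM with spermidine and 8.20, 6.86 and 8.29 CPM without, a 1.33-fold difference with an adjusted p of 0.973 in edgeR. Neither tool called a member (0% of genes by edgeR), and 0 had an unadjusted p under 0.05 (1109 genes did). In Smox non-tumor colon all 8 genes had a lower mean with spermidine, with a median of -2.65 against 0.00. Cd74 was 8.24-fold lower (94.4 against 778 CPM, adjusted p = 0.298, edgeR) and overlapped. H2-Eb1, H2-DMb2 and Ciita did not overlap (8.29% of genes in that direction), and H2-DMb2 was 6.50-fold lower at 0.531 ± 0.0193 against 3.46 ± 1.27 CPM (adjusted p = 0.300). No member was called by either tool (0% of genes by edgeR), and 7 had an unadjusted p under 0.05 (2676 genes did). The median was -0.58 without replicate 3 of the Smox group without spermidine. The interaction of genotype and spermidine during AOM-DSS called no member and no gene (0%), with 0 members at an unadjusted p under 0.05 (820 genes were). DESeq2 called 0 members in it, and the median was -2.54, or -0.50 without replicate 3 of Smox AOM-DSS colon.

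AOM-DSS in WT went with a higher mean of all 8 genes in non-tumor colon, with a median log2 change of 1.26 against 0.00. Cd74 was 2.80-fold higher (136 against 48.5 CPM), and with H2-Aa (2.39-fold), H2-Ab1 (2.15-fold) and H2-DMb1 (2.39-fold) it did not overlap, a gap seen for 7.98% of genes in that direction. The adjusted p of these 4 lay between 0.467 and 0.569 in edgeR. H2-DMb2 was 4.75-fold higher (4.75 against 0.999 CPM, adjusted p = 0.202) and overlapped. No member was called by either tool, against 6.44% of genes in edgeR, and 1 had an unadjusted p under 0.05 (4819 genes did). The median stayed between 0.99 and 1.46 with each library of these groups left out. Without the atypical libraries Cd74 was 3.16-fold higher (adjusted p = 0.597, edgeR) and 0 members were called.

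In Smox the same treatment left a median of -0.01 against 0.01. All 8 overlapped (22% of genes did not), and 0 were called by either tool (0.0767% of genes by edgeR). An unadjusted p under 0.05 was held by 0 of them (2533 genes did). Cd74 averaged 778 CPM after AOM-DSS and 786 CPM without, from 1 high library of 3 in the first group and 3 of 3 in the second. Without replicate 3 of the AOM-DSS group the median was -1.94. The interaction of genotype and AOM-DSS had a median of -1.11, which ran from -3.21 without replicate 3 of Smox AOM-DSS colon to -0.62 without replicate 1 of that group. It had 0 members called by either tool (0% of genes by edgeR) and 0 at an unadjusted p under 0.05 (3088 genes were).

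Among mice given spermidine, AOM-DSS went with a lower mean of 7 of 8 genes in WT (median -1.60 against 0.01) and of all 8 in Smox (median -2.45 against -0.01). In WT all 8 overlapped (36.4% of genes did not), and 0 were called by either tool (1.91% of genes by edgeR). There 0 had an unadjusted p under 0.05 (3805 genes did), and the median was 0.84 without replicate 2 of WT given spermidine alone. In Smox Cd74 was 6.52-fold lower (94.4 against 615 CPM, adjusted p = 0.281, edgeR) and overlapped. H2-Eb1 did not overlap there (9.31% of genes in that direction), at 5.20-fold lower (26.9 against 140.0 CPM, adjusted p = 0.281). In Smox no member was called by edgeR (0.0205% of genes were), and 5 were under 0.05 before adjustment (3193 genes were). DESeq2 called H2-DMb2 (adjusted p = 0.0463). That difference rested on replicate 1 of Smox given spermidine, at 12.6 CPM: without it H2-DMb2 was 1.09-fold lower after AOM-DSS (adjusted p = 0.986, edgeR). In the interaction H2-DMb2 had the lowest value, -4.82 on the log2 scale (SE 1.55, adjusted p = 0.544, edgeR), and the median of the members was -0.69. The H2-DMb2 value was -1.79 without replicate 1 of Smox given spermidine and -2.14 without replicate 2 of WT AOM-DSS-Spd colon. The median ran from -3.34 without replicate 2 of WT given spermidine to -0.13 without replicate 3 of that group. That interaction called 0 members by either tool (0% of genes by edgeR), and 1 had an unadjusted p under 0.05 (1177 genes did).

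WT tumors were lower in all 8 genes than WT non-tumor colon of mice given the same AOM-DSS and spermidine, with a median log2 change of -1.54 against 0.01. H2-DMb2 was the member called, against 34.4% of genes, at 8.01-fold lower (0.383 against 3.08 CPM, adjusted p = 0.0432, edgeR). That fold came from replicate 2 of the non-tumor group at 8.23 CPM, without which H2-DMb2 was 1.30-fold lower (adjusted p = 0.831, edgeR). Its groups overlapped, and the call was also lost without any of the 3 tumor libraries and without the filter on low counts. The other 7 genes did not overlap (27.3% of genes in that direction), yet none of them was called. Of all 8, 2 had an unadjusted p under 0.05 in edgeR (8704 genes did). Ciita was 6.07-fold lower (1.17 against 7.10 CPM, adjusted p = 0.112, edgeR), H2-Ab1 and H2-Aa both 3.04-fold (0.263 and 0.293), and Cd74 1.89-fold (78.0 against 148 CPM, 0.565). A model of the 6 libraries of these groups alone called these 7 and not H2-DMb2, and its share of all genes called is not given here. In it H2-Ab1 had an adjusted p of 0.00168, Ciita of 0.00516, H2-DMa of 0.00518, H2-DMb1 of 0.00702, H2-Aa of 0.00987, H2-Eb1 of 0.0201 and Cd74 of 0.0413. DESeq2 called H2-DMb2 (adjusted p = 0.0106) and Ciita (0.0472).

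Smox tumors had a lower mean of all 8 genes than Smox AOM-DSS colon, with a median of -0.36 against -0.01. H2-DMb2 was 5.10-fold lower (0.678 against 3.46 CPM, adjusted p = 0.112, edgeR) and did not overlap (21.5% of genes in that direction). No member was called by edgeR, against 24.6% of genes, and 1 was under 0.05 before adjustment (7780 genes were). By DESeq2 0 were called. Both groups held 1 library above the Cd74 gap. Without replicate 3 of the tumors the median was -3.12 and edgeR called 3 members, with 6117 calls over all genes. The 3 were Ciita (11.3-fold lower, adjusted p = 0.0449), H2-Ab1 (8.42-fold, 0.0479) and H2-DMa (7.84-fold, 0.0365). Without replicate 3 of the non-tumor colon the median was 1.63.

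**Figure D4:**
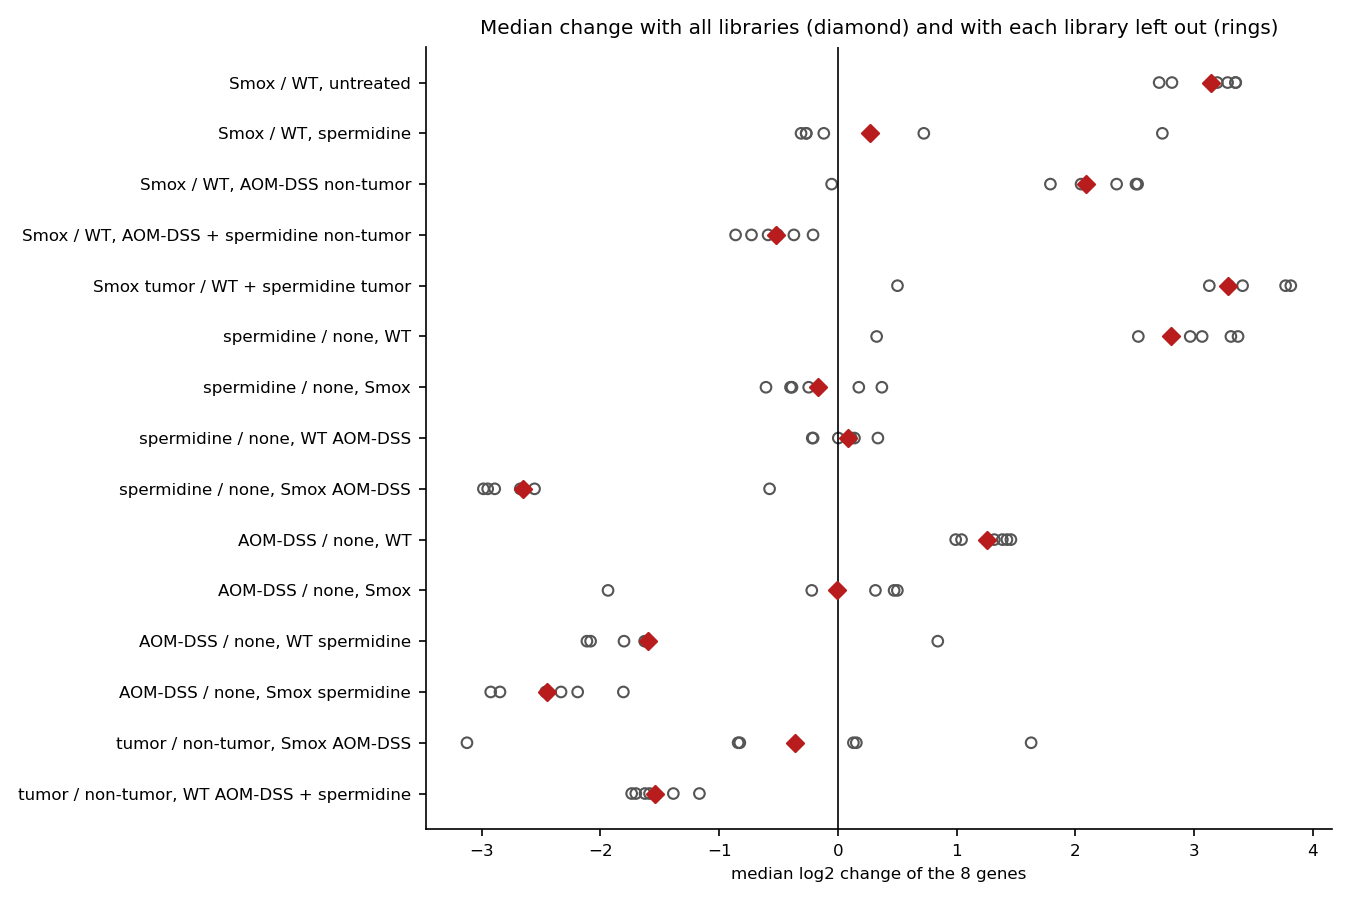
Median log2 change of the 8 genes in each of the 15 comparisons with all libraries (diamonds) and with each library left out in turn (rings). The untreated genotypes keep medians from 2.71 to 3.35, whereas in Smox tumor against non-tumor colon they run from -3.12 to 1.63.

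The wider pathway was described with lists. Of 10 genes of peptide loading and other class II genes (DO, H2-Eb2, the lysosomal proteases and Ifi30), 0 were called between untreated genotypes, with a median log2 change of 0.19. In WT tumors against non-tumor colon 5 of the 10 fell and 2 rose, where 34.4% of all genes were called. H2-Ob fell 43.0-fold (0.0792 against 3.50 CPM, adjusted p = 0.0132, edgeR), but its non-tumor libraries held 0.441, 9.85 and 0.190 CPM, and without replicate 2 it was 3.97-fold lower (adjusted p = 0.323). Ctss, the cathepsin that trims the invariant chain, fell 2.83-fold (90.3 against 256 CPM, 0.00342), and Ifi30, a thiol reductase of endosomes, 2.72-fold (56.2 against 153 CPM, 0.000447). H2-Oa and H2-Eb2 also fell, though without replicate 2 their adjusted p was 0.432 and 0.350, and the proteases Ctsd and Lgmn rose. In Smox tumors, where 24.6% of all genes were called, 3 of the 10 fell, with Ctsb 1.43-fold lower (388 against 554 CPM, adjusted p = 0.0120, edgeR).

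The 14 regulators of class II genes, among them the RFX and NF-Y subunits, had a summed level between 425 and 573 CPM over 30 libraries. Between untreated genotypes 1 of 14 was called, where 5.95% of all genes were. This was Spi1, a myeloid and B cell transcription factor, 3.99-fold higher in Smox (6.05 against 1.52 CPM, adjusted p = 0.0498, edgeR). Its call was lost with any 1 of the 6 libraries left out. The median of the list was 0.11. In WT tumors, where 34.4% of all genes were called, 2 of 14 rose and 2 fell. Among them were Irf8 (3.06-fold lower, adjusted p = 0.00210, edgeR) and Nfyb (1.68-fold higher, 0.00409). In Smox tumors, where 24.6% of all genes were called, 2 of 14 rose, among them Rfx5 (1.36-fold, adjusted p = 0.0499, edgeR), and 1 fell. The Rfx5 call was lost in 5 of 6 cases with 1 library left out. After AOM-DSS in WT, where 6.44% of all genes were called, Crebbp was the 1 regulator called, 1.51-fold lower (adjusted p = 0.0343, edgeR). That call was lost without replicate 3 of untreated WT.

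Class I presentation and interferon gamma signalling were described in the same way. The 16 class I genes summed to between 2725 and 9928 CPM, highest in replicate 3 of Smox AOM-DSS colon, the library with the highest Cd74. The next highest class I sums, 8877 and 8596 CPM, were in replicate 3 of Smox tumors and replicate 2 of WT given spermidine. Between untreated genotypes 1 of 16 was called, where 5.95% of all genes were, and the list median was 0.60. This was the chaperone Calr (1.77-fold higher in Smox, adjusted p = 0.0359, edgeR). Its call was lost in 4 of 6 cases with 1 library left out. The 18 interferon gamma genes summed to between 678 and 2015 CPM, highest in replicate 2 of untreated Smox, and 0 were called between untreated genotypes, with a median of 1.63. Ifng itself ran from 0 to 0.952 CPM. In WT tumors 3 of the 18 fell, Irgm1 (3.41-fold, adjusted p = 0.0270, edgeR), Irf1 (2.47-fold, 0.0407) and Ifngr1 (2.08-fold, 0.00598), as did 2 of the 16 class I genes, B2m (3.55-fold, 0.0391) and Erap1 (1.52-fold, 0.0498). Both counts were below the 34.4% of all genes called there. Neither the class I calls nor that of Irf1 held with any 1 of the 6 libraries left out. The Irgm1 call was lost in 4 of these 6 cases and the Ifngr1 call in 0. In Smox tumors, where 24.6% of all genes were called, 1 interferon gamma gene fell and 0 class I genes were called. After AOM-DSS in WT the class I gene Pdia3 (1.67-fold, adjusted p = 0.0407, edgeR) and the kinase gene Jak1 (1.34-fold, 0.0388) rose. There 6.44% of all genes were called, and both calls were lost without replicate 3 of untreated WT. An interferon gamma gene was also high with low class II genes: in replicate 1 of WT AOM-DSS-Spd colon Gbp2 was at 109 CPM with Cd74 at 132 CPM, a case chosen after its values were seen.

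**Figure D5:**
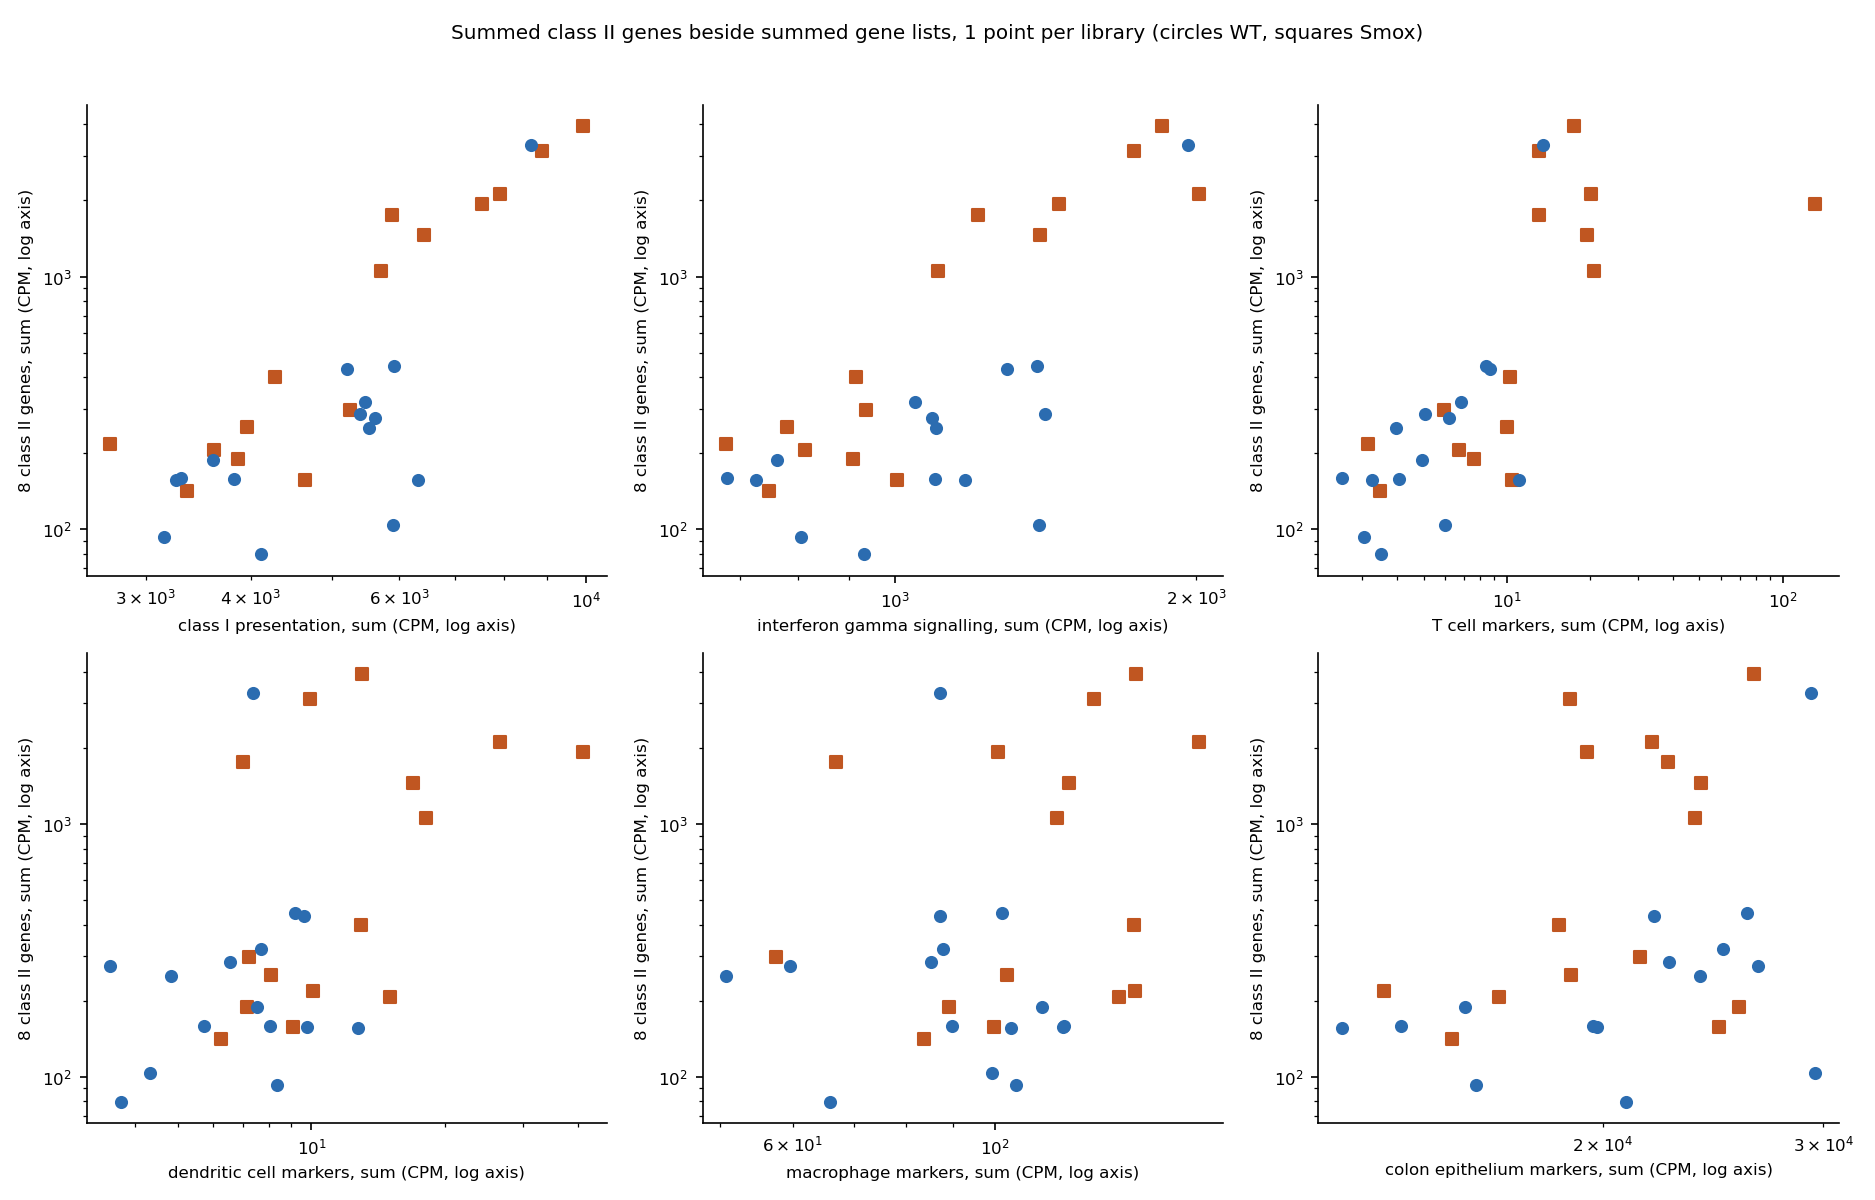
Summed level of the 8 genes against the summed level of 6 of the lists in CPM on log axes, 1 point per library. The class I sum reaches 9928 CPM in the library with the most class II RNA, and the macrophage sum runs from 50.7 to 168 CPM over the libraries.

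Markers of cells that can carry class II genes were set beside the members, and their part in the results was not tested. Between untreated genotypes 2 of 11 dendritic cell markers rose in Smox, Itgax 5.12-fold (9.44 against 1.84 CPM, adjusted p = 0.0206, edgeR) and Itgae 4.68-fold (5.00 against 1.07 CPM, 0.0204), with a list median of 1.73. Of 10 macrophage markers 2 rose, C1qb 3.23-fold (19.6 against 6.07 CPM, adjusted p = 0.0495, edgeR) and C1qa 3.09-fold (24.0 against 7.78 CPM, 0.0448), with a median of 1.13. Of 8 costimulation genes Cd86 rose 5.77-fold (1.94 against 0.336 CPM, adjusted p = 0.0429). None of the 10 B cell markers (median 2.36), the 8 T cell markers (1.73), the 4 tested markers of group 3 innate lymphoid cells (0.63) or the 7 follicle genes (1.60) was called. Of markers of tissue structure, 3 of 7 squamous epithelium genes rose, Krt13 from 0.119 to 165 CPM (adjusted p = 0.0303, edgeR). The squamous sum was at 4.00, 102 and 2649 CPM in the untreated Smox libraries, and without replicate 3, the highest, 0 of the 7 were called and the adjusted p of Krt13 was 0.141. The medians were 0.24 for colon epithelium, -1.69 for smooth muscle, -4.77 for skeletal muscle and -0.05 for endothelium, with 0 called in each. Leaving out replicate 3 of untreated WT, the library of high muscle genes, gave medians of -1.64 for smooth muscle and 3.13 for skeletal muscle. Over all lists 10 of 156 genes tested were called between untreated genotypes, where 5.95% of all genes were called. In these lists 0 genes were called without replicate 3 of WT, replicate 2 of Smox or replicate 3 of Smox. Over 30 libraries the macrophage sum ran from 50.7 to 168 CPM, the dendritic cell sum from 3.52 to 41.0, the T cell sum from 2.53 to 131 and the innate lymphoid sum from 34.5 to 139.

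In WT tumors against non-tumor colon, where 34.4% of all genes were called, 8 of 10 B cell markers fell, with a median of -5.90. Ms4a1 fell from 3.57 to 0.0263 CPM (adjusted p = 0.00703, edgeR). The non-tumor libraries held 0.327, 10.1 and 0.254 CPM of Ms4a1, and without replicate 2 its adjusted p was 0.141, 0 B cell markers were called and their median was -1.90. Over the same libraries Spib, a follicle gene, fell 21.9-fold (adjusted p = 0.00264, edgeR), 1 of 3 follicle genes to fall, and without replicate 2 of the non-tumor group it fell 7.42-fold (0.0307). In that comparison 3 innate lymphoid markers fell and 1 rose, 2 dendritic cell markers fell, 3 macrophage markers rose and 2 fell, 8 of 12 colon epithelium markers fell and 1 rose, and all 7 smooth muscle markers fell. The costimulation gene Tnfsf9 rose and Icosl fell, the endothelial gene Emcn rose, the muscle gene Ckm fell, and 0 of the T cell and of the squamous markers were called. In Smox tumors 3 innate lymphoid, 4 colon epithelium, 2 macrophage, 1 dendritic cell, 1 follicle and 1 smooth muscle marker fell, and 1 colon epithelium and 3 squamous markers rose. B cell, T cell, costimulation, skeletal muscle and endothelial genes had 0 calls there, where 24.6% of all genes were called. Calls over all lists in Smox tumors numbered 23, with 49 when replicate 3 of the tumors was left out and 4 and 5 when replicates 1 and 2 were. After AOM-DSS in WT 6 skeletal muscle genes and 1 smooth muscle gene fell (6.44% of all genes were called), with the untreated group holding the library of high muscle genes. Without that library 0 of the 10 list genes called in this comparison were called, and the skeletal muscle median was -0.92 in place of -8.85. All calls in the 16 lists came from the 4 comparisons of groups named here, apart from 1 interferon gamma gene with a called negative difference in the interaction of genotype and spermidine.

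The genes whose level was most like the mean of the members were taken by Spearman's rho over 30 libraries, with the median of 19550 other genes at -0.0018. Unc93b1, which carries nucleic acid receptors to endosomes, came first at 0.953, with 0.902 within the 22 lower libraries and 0.738 within the 8 higher ones, and ran from 29.9 to 104 CPM. Ms4a4b (0.895), Sh2d2a (0.891), Sp110 (0.871), Gm4070 (0.867), Sla2 (0.858), Cd5 (0.855), Gm8995 (0.855), Il2rb (0.852) and Ptpn22 (0.850) followed. Within the 8 higher libraries 3 of these, Cd5, Il2rb and Ptpn22, were at or below -0.21. Taken by deviations from the group means, which drop the differences between groups, the first were Gbp2 (0.912), Gbp7 (0.887) and Il18bp (0.887), genes of the interferon response. Gm12185 (0.864), Ubd (0.860), Tap1 (0.859), Irgm2 (0.858), AW112010 (0.855), Tapbpl (0.852) and AC151990.1 (0.846) completed the 10. Within the 22 lower libraries rho was 0.217 for Gbp2 and -0.161 for Ubd, and within the 8 higher ones 0.476 and 0.881. These are descriptions over libraries that share groups, depth and tissue.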

How the data were processed

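RNA was purified on RNeasy columns, made into libraries with the NEBNext Ultra II Directional kit and sequenced on an Illumina NovaSeq, per the labels' protocols. The submitters' processing notes name fastp, Salmon, DESeq2 and the build GRCm38, without versions. The authors deposited estimated counts (expected counts) per gene as whole numbers for 30 libraries, which were used as deposited. EdgeR 4.0.16 (R 4.3.3) tested the counts: TMM scaling, filterByExpr (minimum count 10, minimum total 15; 19558 genes kept and 11465 removed), 1 robust quasi-likelihood model of 30 libraries with 20 residual degrees of freedom and a common dispersion of 0.177. Benjamini-Hochberg adjustment ran over all 19558 genes in each of 15 comparisons and 4 interactions, at 0.05. SE is on the log2 scale. Groups came from the sample titles, and spread is that between the 3 libraries of a group. Named genes were the 8 members, up to 3 called genes per list and comparison by size of change among those without overlap and with at least 1 CPM in the higher group, or 2 highly expressed ones where none was called, and the 10 genes most like the members. The members and the 16 lists were chosen with earlier results of these data known. Each result was recomputed with DESeq2 1.42.0, with RLE scaling, without a filter, with a filter of 1 CPM in 3 libraries, with only the groups compared, without each library and without a pair of atypical libraries. Leaving out libraries for the gene lists was added after seeing the data, as an extra alternative. The procedure was also run on simulated counts with known changes in untreated Smox, for the comparison of untreated genotypes only. Single high libraries like those of the members were not built into the simulation, and its outcome is not given here.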

Additional observations from a re-analysis of the deposited data

How the results depend on the processing

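The number of members called in a comparison changed as follows. DESeq2 called 6 between the untreated genotypes, 1 between tumors, 2 for spermidine in WT, 1 for AOM-DSS in Smox given spermidine and 2 for WT tumor against non-tumor colon. A model of only the groups compared called 7 in WT and 1 in Smox tumor against non-tumor colon, where H2-DMb2 had an adjusted p of 0.0499 (edgeR). Without a filter on low counts 0 were called in WT tumor against non-tumor colon. With a library left out the count ran from 0 to 1 there and from 0 to 3 in Smox tumors. Shares of all genes called are not given here for DESeq2 or for models of only the groups compared. The causes were not tested.

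Of 42 single log2 changes followed (all 8 members between untreated genotypes and in WT tumors, Cd74 and H2-DMb2 elsewhere), 15 turned direction at least once. None of the 15 was past the threshold. Over all members and alternatives 135 of 1944 changes turned. Cd74 turned for Smox against WT given spermidine (-0.0098 with RLE, -0.0097 with DESeq2) and for AOM-DSS in Smox (0.021 with RLE and with DESeq2, 0.015 without a filter, 0.022 with 1 CPM in 3 libraries). H2-DMb2 turned for spermidine in WT without the atypical libraries (0.11). With a library left out, Cd74 ran from -0.55 to 2.72 for Smox against WT given spermidine, from -0.10 to 2.99 for Smox against WT AOM-DSS colon, from -0.73 to 0.17 for spermidine in Smox, from -0.19 to 0.47 for spermidine in WT AOM-DSS colon, from -2.59 to 0.51 for AOM-DSS in Smox, from -2.60 to 0.67 for AOM-DSS in WT given spermidine, and from -3.04 to 2.22 for Smox tumors. H2-DMb2 ran from -0.73 to 2.76 for Smox against WT given spermidine, from -0.94 to 0.0027 and from -3.03 to 0.094 for Smox against WT AOM-DSS and AOM-DSS-Spd colon, from -0.041 to 1.501 between tumors, from -0.56 to 0.29 and from -2.64 to 0.85 for spermidine in WT and in Smox, from -0.44 to 0.29 for AOM-DSS in Smox, and from -0.94 to 2.18 for AOM-DSS in WT given spermidine. Of the 10 genes most like the members, 2 were shared with Pearson correlation and 6 without the atypical libraries. No paired analysis was possible because the replicate numbers follow the order of the samples and pair no mice. The low level of H2-DMb2, down to 0.132 CPM, limits the precision of its changes.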
